A study of Mus musculus with 8 samples.

Results

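Camp, Ngp, Ltf, Lcn2, Chil3, Cd177, Mmp8 and Mmp9 encode proteins that neutrophils store in their secondary and tertiary granules, and they make up 8 of the 51826 genes in the deposited count table. They were selected on the comparison of tRA with control in these same mice. Their values in that comparison are therefore a description, with no test, and support nothing. RNA of total splenocytes was sequenced from 8 mice, all female Balb/c, with 4 in the tRA group, 4 in the control group and 1 library for each mouse. By the study's methods, the tRA group received all-trans retinoic acid (tRA), the active metabolite of vitamin A, by mouth every day from weaning, and the control group received its vehicle, canola oil. All mice were 3 months of age at harvest, and none had been given pristane, the hydrocarbon oil with which lupus is induced in this strain. The treatment text of the labels gives tRA at 1 mg/kg body weight for all 8 samples, controls included, whereas the sample titles separate tRA from control, and the grouping follows the titles.

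Counts on genes totaled 37539631, 31833853, 35924683 and 30919272 in control mice 1 to 4 and 33755595, 31810417, 35165876 and 32042754 in tRA mice 1 to 4. Levels are given as CPM, the counts per 1e6 counts after scaling by the trimmed mean of M-values (TMM). Fold changes are tRA over control on the log2 scale from edgeR's quasi-likelihood fit, over the 16484 genes that passed its filter on low counts. All 8 granule genes passed, with 306 counts in the lowest library of the least abundant, Mmp8. The lymphocyte transcripts of spleen were present. The B cell marker Ighm, the heavy chain of IgM, was at 10295 ± 968 CPM (SD, n = 4) in controls, and the T cell kinase Lck at 531 ± 72.7 CPM (SD, n = 4). Neutrophil transcripts were also present, with the alarmin S100a9 at 283 ± 37.9 CPM (SD, n = 4) and Csf3r, the receptor for the cytokine G-CSF, at 237 ± 83.1 CPM (SD, n = 4). The promyelocyte gene Mpo was lower, at 14.7 ± 2.86 CPM (SD, n = 4).

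Neutrophils make their granules in waves as they mature. Primary granules, with myeloperoxidase and serine proteases, form in promyelocytes, secondary granules with lactoferrin and cathelicidin form in myelocytes and metamyelocytes, and tertiary granules with gelatinase form last. The transcripts of most granule proteins are abundant while the granule is being built and scarce in the mature cell, which keeps the protein, and the red pulp of the mouse spleen holds both mature neutrophils and granulocyte precursors.

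Camp encodes cathelicidin, the precursor of an antimicrobial peptide. Its level was 73.7, 70.0, 76.3 and 64.2 CPM in control mice 1 to 4, and 25.2, 26.9, 26.2 and 42.7 CPM in tRA mice 1 to 4. All tRA mice lay below all control mice, and tRA mouse 4 stood well above the other tRA mice. The means were 71.1 ± 5.25 CPM (SD, n = 4) in controls and 30.2 ± 8.35 CPM (SD, n = 4) with tRA, which is -1.23 on the log2 scale (standard error 0.156). In these bulk samples, fewer cells that express a gene and less of its RNA per cell cannot be told apart.

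Ngp encodes neutrophilic granule protein, a relative of the cathelicidins with a cystatin-like fold. It was at 263, 353, 359.7 and 323 CPM in control mice 1 to 4 and at 124, 153, 165 and 243 CPM in tRA mice 1 to 4. The groups did not overlap, although control mouse 1 and tRA mouse 4 were only 20.0 CPM apart. The log2 fold change was -0.92 (standard error 0.182), from 325 ± 44.0 CPM (SD, n = 4) to 171 ± 50.9 CPM (SD, n = 4).

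Ltf encodes lactoferrin, which binds iron and so keeps it from microbes. Its level was 137, 165, 193 and 143 CPM in control mice 1 to 4 and 61.5, 75.5, 84.9 and 125 CPM in tRA mice 1 to 4. Again the lowest control was mouse 1, the highest tRA mouse was mouse 4, and the groups were apart. The log2 fold change was -0.88 (standard error 0.191), from 159 ± 25.3 CPM (SD, n = 4) to 86.6 ± 27.2 CPM (SD, n = 4).

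Lcn2 encodes lipocalin 2, which captures the siderophores that bacteria use to take up iron. It was at 50.7, 67.4, 63.9 and 60.0 CPM in control mice 1 to 4 and at 25.0, 35.3, 34.4 and 52.7 CPM in tRA mice 1 to 4. Here tRA mouse 4 exceeded control mouse 1, so the groups overlapped, while the other tRA mice were below every control. The log2 fold change was -0.71 (standard error 0.187), from 60.5 ± 7.17 CPM (SD, n = 4) to 36.9 ± 11.6 CPM (SD, n = 4).

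Chil3, also called Ym1, encodes a chitinase-like lectin without chitinase activity that macrophages can make as well. Its level was 11.6, 19.2, 22.9 and 19.3 CPM in control mice 1 to 4 and 9.77, 13.4, 16.2 and 14.8 CPM in tRA mice 1 to 4. Control mouse 1 lay among the tRA mice, and tRA mouse 3, not 4, was the highest with tRA. The log2 fold change was -0.43 (standard error 0.205). Chil3 has a near-identical neighbor, Chil4, so its counts are uncertain where reads match both genes. Chil4 was at 0 counts in all 8 libraries. A count of 0 allows up to 3 counts, or 0.0969 CPM in the library where 1 count weighs most.

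Cd177 encodes a surface glycoprotein of neutrophils that is also held in the membranes of secondary granules. It was at 22.4, 34.9, 33.8 and 27.6 CPM in control mice 1 to 4 and at 17.0, 19.5, 20.9 and 32.3 CPM in tRA mice 1 to 4. All tRA mice but mouse 4 were below every control, and mouse 4 was within the control range. The log2 fold change was -0.40 (standard error 0.199), and -0.63 without tRA replicate 4.

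The metalloproteinases showed little difference between the groups. Mmp8, the neutrophil collagenase of secondary granules, was at 13.2, 15.2, 12.7 and 12.6 CPM in control mice 1 to 4 and at 10.1, 9.64, 10.7 and 19.2 CPM in tRA mice 1 to 4. With tRA, mouse 4 was the highest of all 8 mice and the other 3 were the lowest. Its log2 fold change was -0.11 (standard error 0.204) over all mice, -0.40 without tRA replicate 4, and between -0.012 (without tRA replicate 2) and -0.14 with each other mouse left out, with -0.024 without tRA replicate 1, -0.046 without control replicate 2 and -0.048 without tRA replicate 3. Mmp9, the gelatinase that marks tertiary granules, was at 31.0, 60.3, 38.2 and 44.9 CPM in control mice 1 to 4 and at 36.7, 38.8, 30.5 and 53.9 CPM in tRA mice 1 to 4. These groups overlapped almost entirely. The log2 fold change of -0.13 (standard error 0.208) turned to 0.072 without control replicate 2, the control with the highest level, and was -0.016 without tRA replicate 3, -0.19 without control replicate 3, -0.26 without control replicate 1 and -0.30 without tRA replicate 4.

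**Figure D1:**
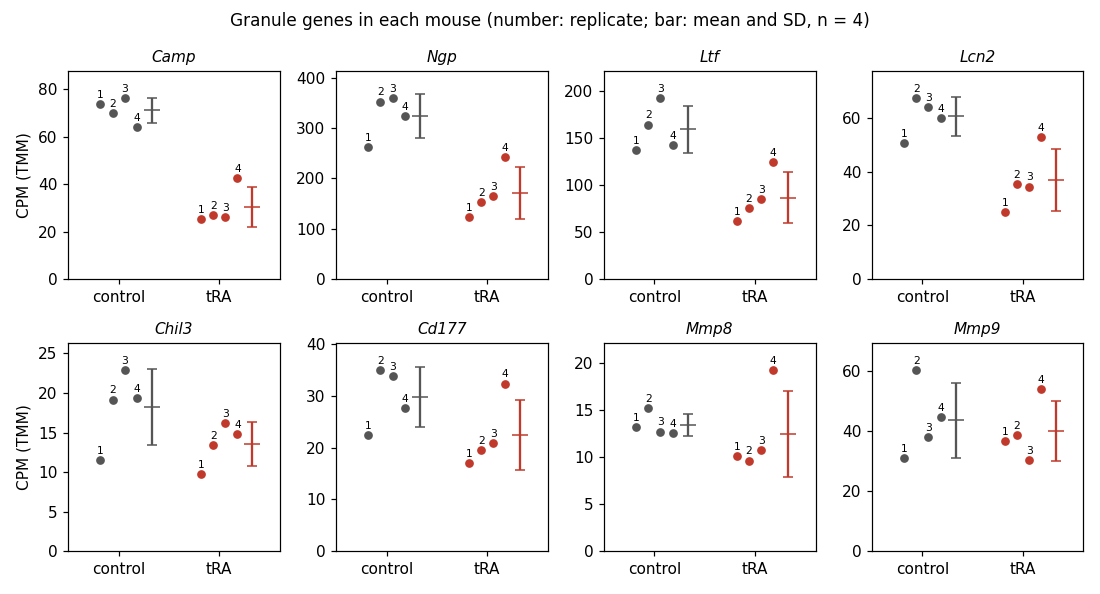
Level of each granule gene in CPM (vertical axes, linear and starting at 0) in the 4 control and 4 tRA mice, with the replicate number above each point and the mean and SD at the right of each group. The groups are apart for Camp, Ngp and Ltf, and tRA mouse 4 is the highest tRA mouse for every gene but Chil3.

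As a group, the 8 genes had a median log2 fold change of -0.57, against 0.0014 for all genes tested, and all 8 values were negative, against 49.7% of all genes. The median lay between -0.43 and -0.78 when each mouse was left out in turn. By the quasi-likelihood test of edgeR, with p-values adjusted by Benjamini and Hochberg's method, 0 of the 8 and 0 of all genes tested had an FDR under 0.1, or 0.0%, while 1070 genes had an unadjusted p under 0.05 (2105 without tRA replicate 1, 657 without tRA replicate 4). Of the 8, 4 were at that level, all lower with tRA, beside 3.55% of all genes tested that had such a p and were lower. DESeq2 called 4 of the 8, Camp, Ngp, Ltf and Lcn2, as lower with tRA at an FDR under 0.1, beside 0.103% of all genes it tested. The paper, which used DESeq2 at the same FDR threshold, lists Camp, Ngp and Ltf among its significant genes. Groups that did not overlap, with tRA lower, were seen for 3 of the 8, beside 1.63% of all genes tested. Since the genes were chosen by this comparison, nothing is read from these counts.

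The calls depended on the test and on single mice. Without tRA replicate 4, edgeR called 3 genes in all, which were Camp, Ngp and Ltf. With 1 mouse left out, a setting added after seeing the data, DESeq2 called between 3 and 5 of the 8. The 5 came without tRA replicate 4, when Cd177 was added to the 4 genes above. With that mouse left out, DESeq2 called 20 of all 16858 genes it tested. DESeq2 called 27 genes in all over the 8 mice and 551 without tRA replicate 1.

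Some mice often kept the same place from gene to gene, though not for all genes. tRA mouse 4 was the highest tRA mouse for 7 of the 8 genes, tRA mouse 1 the lowest for 6, and control mouse 1 the lowest control for 6. Control mouse 2 was the highest control for 4. The summed level of the 8 genes was 603, 784, 800.3 and 694 CPM in control mice 1 to 4 and 309, 372, 389 and 584 CPM in tRA mice 1 to 4. They thus took between 0.0593% and 0.0791% of all counts in controls and between 0.0300% and 0.0596% with tRA. After subtraction of the group means on the log2 scale, the correlation between a pair of the genes over the 8 mice had a median Pearson's r of 0.775 over 28 pairs, from 0.202 for Camp and Chil3 to 0.978 for Ngp and Lcn2. Ngp had the highest mean r with the other genes, 0.842, and Chil3 the lowest, 0.506. These points share their libraries and scaling, and the values are a description. No correlation without tRA mouse 4 is given.

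The spread of the genes within the tRA group came largely with mouse 4. The median coefficient of variation of the 8 genes was 14.7% in controls and 30.0% with tRA, against 8.86% and 7.86% for the 8746 genes tested with a mean between 10 and 400 CPM. Without tRA replicate 4, the 30.0% became 13.4%, and with any other tRA mouse left out it was between 28.2% and 35.9%. Over all 4 controls Camp was the steadiest, at 7.39% (4.29% without control replicate 4). Without control replicate 2 it was at 8.94% and Mmp8 at 2.37%. Without control replicate 1 Camp was at 8.63%, above Ngp at 5.66% and Lcn2 at 5.74%. With tRA Camp was at 27.6%, but at 3.38% without tRA replicate 4. Mmp9 and Chil3 were at 28.7% and 26.1% in controls, Mmp9 at 18.2% without control replicate 2 and Chil3 at 10.3% without control replicate 1.

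Per kilobase of exon, Ngp was the most abundant of the 8 transcripts in every library, at 266 ± 36.0 CPM per kilobase (SD, n = 4) in controls. Camp followed at 93.7 ± 6.93, Ltf at 46.2 ± 7.34 and Lcn2 at 23.1 ± 2.73 CPM per kilobase (SD, n = 4). The control ranges of these 4 genes did not overlap. Mmp9, Chil3 and Cd177, at 12.3 ± 3.53, 11.2 ± 2.92 and 10.4 ± 2.04 CPM per kilobase (SD, n = 4), did not differ beyond their spread. Mmp8 was the last in all 8 libraries, at 5.53 ± 0.50 CPM per kilobase (SD, n = 4). With tRA the leading 4 came down to 140 ± 41.7, 39.9 ± 11, 25.1 ± 7.88 and 14.1 ± 4.41 CPM per kilobase (SD, n = 4) in the same order, and the ranges of neighbors from Camp downward overlapped. The order Ngp, Camp, Ltf, Lcn2 held at the top in 7 of 8 libraries, and in tRA mouse 1 Mmp9 passed Lcn2.

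Ratios among the genes are given as a description. Nothing is read from them, as the genes were chosen by the comparison of tRA with control. The ratio of Camp to Mmp9 CPM was 2.37, 1.16, 2.00 and 1.43 in control mice 1 to 4 and 0.686, 0.694, 0.859 and 0.793 in tRA mice 1 to 4. All tRA values were below all control values, tRA mouse 4 included. In the comparison that chose the genes, the log2 fold change was -1.23 for Camp and -0.13 for Mmp9. By contrast, the ratio of Ltf to Ngp was alike in both groups, at 0.521, 0.467, 0.536 and 0.443 in control mice 1 to 4 and 0.496, 0.494, 0.513 and 0.513 in tRA mice 1 to 4. The ratio of Camp to Ngp was 0.280, 0.199, 0.212 and 0.199 in controls and 0.203, 0.176, 0.158 and 0.176 with tRA, with overlap. The ratio of Lcn2 to Ngp was 0.193, 0.191, 0.178 and 0.186 in controls and 0.202, 0.231, 0.208 and 0.217 with tRA, with all tRA values above all control values.

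A list of 33 other secondary and tertiary granule genes was examined, of which 32 were tested and 1, Ptx3, was at 0 counts in all libraries. Of the 32, 23 were lower with tRA and 9 were higher, with a median log2 fold change of -0.16 against 0.0014 for all genes. edgeR and DESeq2 each called 0 of them at an FDR under 0.1, and 10 had an unadjusted p under 0.05 in edgeR's quasi-likelihood test, all of them lower, beside 3.55% of all genes tested. This count of 10 became 4 without tRA replicate 2, 5 without control replicate 3 and 6 without control replicate 2. The median was -0.037 without control replicate 2 and -0.074 without tRA replicate 3. Fcnb, a ficolin that recognizes microbial sugars, was at 3.06, 3.95, 3.50 and 3.55 CPM in control mice 1 to 4 and at 1.01, 2.05, 2.09 and 2.57 CPM in tRA mice 1 to 4. These groups did not overlap, and its log2 fold change was -0.86 (standard error 0.248, edgeR FDR 0.757). Olfm4, a matrix glycoprotein found in the granules of a subset of neutrophils, was at 9.0 ± 1.56 CPM (SD, n = 4) in controls and 5.20 ± 1.56 CPM (SD, n = 4) with tRA, or -0.79 on the log2 scale (standard error 0.212). Itgb2l, an integrin beta-like chain of mouse neutrophils, had a log2 fold change of -0.69 (standard error 0.324). The most abundant gene of the list, Lyz2, is a lysozyme that macrophages also make, and it was at 587 ± 178 CPM (SD, n = 4) and 644 ± 62.6 CPM (SD, n = 4).

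**Figure D2:**
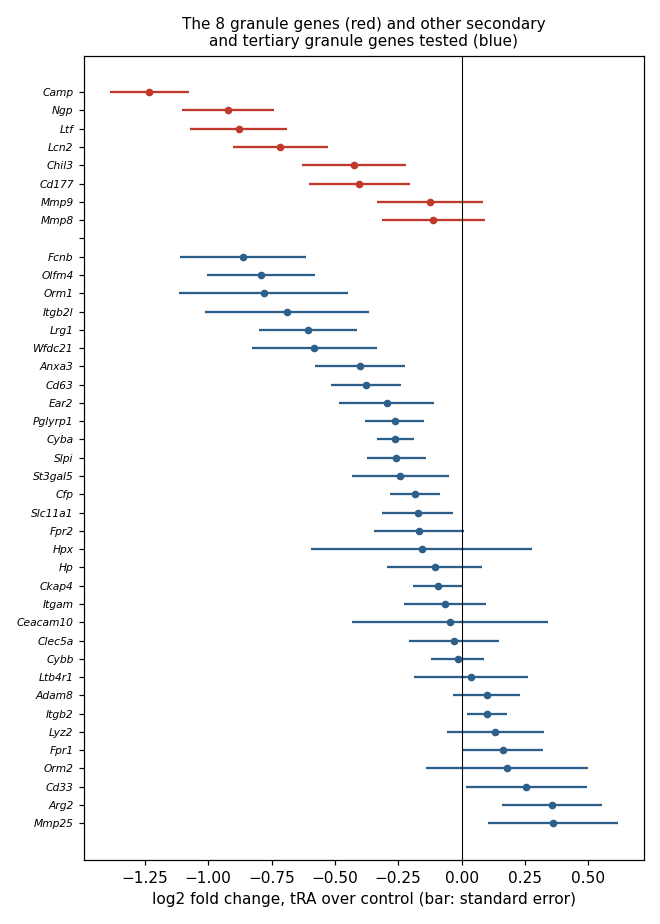
Log2 fold change of tRA over control (horizontal axis) with its standard error for the 8 granule genes, in red, and the 32 other secondary and tertiary granule genes tested, in blue. The red values run from -1.23 for Camp to -0.11 for Mmp8, and 23 of the 32 blue values are below 0.

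Genes of the stages before and after secondary granules were set beside these. Of 20 primary granule and progenitor genes, 17 were tested, 11 lower and 6 higher, with a median of -0.046. None of the 17 was called by edgeR or DESeq2, and 5 had an unadjusted p under 0.05, all lower, beside 3.55% of all genes tested. At a mean of at least 1 CPM, the largest differences were in the proteases of primary granules and in myeloperoxidase. Elane, neutrophil elastase, was at 2.92, 3.49, 2.95 and 4.04 CPM in control mice 1 to 4 and at 0.550, 1.42, 1.93 and 2.63 CPM in tRA mice 1 to 4, or -1.03 on the log2 scale (standard error 0.355). Prtn3, proteinase 3, went from 3.03 ± 0.214 CPM (SD, n = 4) to 1.52 ± 0.629 CPM (SD, n = 4), and Mpo had a log2 fold change of -0.80 (standard error 0.272). Elane and Prtn3 did not overlap between the groups, and Mpo did. Below a mean of 1 CPM, Ctsg and Ms4a3 had log2 fold changes of -0.85 (standard error 0.248) and -0.97 (standard error 0.313). The groups did not overlap for Ctsg and did for Ms4a3. Calr, a chaperone of all cells, was the most abundant gene of the list, at 768 ± 12.9 CPM (SD, n = 4) and 780.1 ± 92.0 CPM (SD, n = 4). As the list holds such genes too, its median does not describe the promyelocyte genes alone.

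Of 34 genes of mature neutrophils, 30 were tested, 12 lower and 18 higher, with a median of 0.055. edgeR and DESeq2 called 0 of the 30, and 4 had an unadjusted p under 0.05, all lower, beside 3.55% of all genes tested. Ly6g, the surface antigen by which mouse neutrophils are sorted, was at 6.76 ± 1.21 CPM (SD, n = 4) and 3.95 ± 1.31 CPM (SD, n = 4), or -0.77 on the log2 scale (standard error 0.224). The alarmins S100a8 and S100a9, which form the cytosolic complex calprotectin, had log2 fold changes of -0.63 (standard error 0.202) and -0.58 (standard error 0.157). Their summed level was 328, 441, 420.3 and 364 CPM in control mice 1 to 4 and 251, 236, 189 and 352 CPM in tRA mice 1 to 4, with tRA mouse 4 again the highest with tRA. The receptors in the list had values of both signs, such as a log2 fold change of 0.25 for Csf3r (standard error 0.228) and 0.39 for the chemokine receptor Cxcr2 (standard error 0.190), against -0.31 for Hcar2 (standard error 0.260) and -0.26 for Trem3 (standard error 0.277), and for all 4 genes the groups overlapped.

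Of 30 transcription factors and cytokine receptors of granulocytes, 29 were tested, 20 lower and 9 higher, with a median of -0.063. The call count was 0 by edgeR and by DESeq2, and 3 had an unadjusted p under 0.05, all lower, beside 3.55% of all genes tested. Cebpe, a C/EBP family factor required for the formation of secondary granules, was at 1.95, 2.86, 2.80 and 2.04 CPM in control mice 1 to 4 and at 0.886, 1.10, 1.30 and 2.17 CPM in tRA mice 1 to 4. tRA mouse 4 was within the control range and the other tRA mice were below it, and the difference was -0.82 on the log2 scale (standard error 0.282, edgeR FDR 0.757). Cebpb, a C/EBP factor of emergency granulopoiesis, had a log2 fold change of -0.65 (standard error 0.315), and Rarb, a retinoic acid receptor, one of 0.43 (standard error 0.208). Ets1, which lymphocytes express, was the most abundant, at 1306 ± 116 CPM (SD, n = 4) and 1408 ± 60.6 CPM (SD, n = 4).

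Partners, receptors and inhibitors of the 8 proteins were lower for 10 and higher for 10 of the 20 tested among 27, with a median of -0.0039. The list had 0 calls by edgeR and DESeq2, with 2 higher and 1 lower at an unadjusted p under 0.05, beside 2.94% higher and 3.55% lower of all genes tested. Itgal, an integrin chain, was the most abundant, at 510.2 ± 60.1 CPM (SD, n = 4) in controls. At a mean of at least 1 CPM, the largest differences were in Cd14, a lipopolysaccharide coreceptor (-0.36, standard error 0.192), Itga4, an integrin chain (0.30, standard error 0.126), and Slc22a17, a receptor for lipocalin 2 (-0.27, standard error 0.164), each a log2 fold change. Of 24 genes of granule storage and exocytosis, 23 were tested, 15 lower and 8 higher, with a median of -0.037. edgeR and DESeq2 called 0 of the 23, and 0 had an unadjusted p under 0.05. Srgn, the proteoglycan core on which granule proteins are packed, was the most abundant, at 314 ± 32.9 CPM (SD, n = 4) and 348 ± 94.2 CPM (SD, n = 4). The largest log2 fold changes were those of the vesicle fusion genes Vamp2 (-0.21, standard error 0.139), Stx4a (-0.15, standard error 0.083) and Vps33b (0.15, standard error 0.085).

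Few paralogs of the 8 genes were expressed. Of 38 listed, 15 were tested, 9 lower and 6 higher, with a median of -0.13 and 0 calls by edgeR and DESeq2, and 1 in each direction had an unadjusted p under 0.05, beside 2.94% higher and 3.55% lower of all genes. Besides Chil4, the genes Mmp1a, Mmp1b, Mmp20, Lcn3, Lcn5, Lcn6, Lcn8, Lcn9 and Stfa1 were at 0 counts in all libraries. Among those that share a symbol stem with the 8 genes, Chil1 was at 8.06 ± 1.36 CPM (SD, n = 4) in controls, with a log2 fold change of -0.19 (standard error 0.164). Chil5 had a log2 fold change of 0.26 (standard error 0.167), Lcn4 one of 0.11 (standard error 0.146) and Mmp14, a membrane-bound collagenase, one of -0.14 (standard error 0.228). Below a mean of 1 CPM, Chil6 had one of 0.28 (standard error 0.338), Mmp13 one of -0.50 (standard error 0.468) and Mmp27 one of -0.67 (standard error 0.361). Mmp12, the macrophage elastase, was at 5.58 ± 1.59 CPM (SD, n = 4) and 6.90 ± 0.667 CPM (SD, n = 4), or 0.31 on the log2 scale (standard error 0.184). Mmp19 had the largest value, a log2 fold change of 0.81 (standard error 0.333) from 0.936 ± 0.361 CPM (SD, n = 4). Cst3, a cystatin, was the most abundant of the list, at 226 ± 11.1 CPM (SD, n = 4) and 192 ± 14.7 CPM (SD, n = 4).

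Markers of other spleen cells were examined in the same libraries, and edgeR and DESeq2 each called 0 genes in every one of these lists. The monocyte markers had a median log2 fold change of 0.12, with 8 of 12 higher and 1 higher at an unadjusted p under 0.05, beside 2.94% of all genes tested. Their summed level was 473, 833, 730.0 and 614 CPM in control mice 1 to 4 and 555, 675, 824 and 806 CPM in tRA mice 1 to 4, and no marker was at 0 counts in all libraries. Csf1r, the receptor for a macrophage growth factor, was the most abundant, at 177 ± 34.9 CPM (SD, n = 4) and 180 ± 37.8 CPM (SD, n = 4). Control mouse 1, the lowest control for most of the granule genes, was the lowest of all mice for the monocyte markers. The part of this in the granule gene values was not tested. Fn1 had a log2 fold change of 0.49 (standard error 0.364), F13a1 of 0.38 (standard error 0.257) and Ccr2 of 0.27 (standard error 0.213).

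The red pulp macrophage markers had a median of -0.10, with 11 of 14 lower, and 0 at an unadjusted p under 0.05, and Hmox1 was their most abundant gene, at 175 ± 41.5 CPM (SD, n = 4) and 155 ± 23.8 CPM (SD, n = 4). Eosinophil and basophil markers had a median of 0.012 with 4 of 8 lower, and dendritic cell markers a median of -0.090 with 9 of 13 lower. At an unadjusted p under 0.05 there were 0 of the former, and 2 higher and 1 lower of the latter, beside 2.94% higher and 3.55% lower of all genes. B cell markers had a median of -0.0092 with 5 of 10 lower, and T cell markers a median of 0.10 with 9 of 13 higher, of which 1 had an unadjusted p under 0.05 (beside 2.94% of all genes higher at that level), against 0 of the B cell markers. NK cell markers had a median of -0.032 with 4 of 7 lower, megakaryocyte and platelet markers one of -0.17 with 4 of 6 lower, and proliferation genes one of -0.032 with 8 of 12 lower, each list with 0 genes at an unadjusted p under 0.05.

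Of 9 plasma cell markers, 6 were lower with tRA, with a median of -0.17, and 4 had an unadjusted p under 0.05, all lower, beside 3.55% of all genes tested. Jchain, the joining chain of IgM and IgA, was their most abundant gene, at 609 ± 80.3 CPM (SD, n = 4) and 443 ± 72.3 CPM (SD, n = 4), or -0.46 on the log2 scale (standard error 0.126, edgeR FDR 0.757). The erythroid list had a median of 0.060 and 0 genes at an unadjusted p under 0.05. Its summed level was 1016, 1809, 2644 and 644 CPM in control mice 1 to 4 and 2470.0, 807, 3901 and 763 CPM in tRA mice 1 to 4, and Hbb-bs, a beta globin, was its most abundant gene.

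The genes most like the 8 were ranked by Pearson's r of the deviation of log2 CPM from the group mean with the mean of the 8 genes, over the 8 mice, among 13570 genes with a mean of at least 1 CPM. This likeness is a description of shared libraries, without a p. The 10 leading genes were Cebpe (r = 0.973), Gm10785 (0.965), Mmachc (0.950), Olfm4 (0.948), Dpy19l1 (0.947), Cd244a (0.944), Fcgr4 (0.942), Zfp160 (0.940), Camk2b (0.938) and Ufsp1 (0.928). Olfm4 was the only gene among them from the lists of other secondary and tertiary granule, primary granule and mature neutrophil genes. The ranking was not stable. Of the 10 genes, 0 remained among the leading 10 without tRA replicate 4, 2 without control replicate 1 or control replicate 3, and 7 without tRA replicate 2. The genes alike in this way differed in their log2 fold change, from -0.82 for Cebpe and -0.79 for Olfm4 to 0.28 for Zfp160 (standard error 0.078) and 0.24 for Mmachc (standard error 0.127). By list, the median r was 0.482 for the other secondary and tertiary granule genes, 0.361 for mature neutrophil genes and 0.0898 for primary granule and progenitor genes. It was 0.642 for monocyte markers and 0.381 for eosinophil and basophil markers, against -0.0107 for all genes compared.

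Camp, Ngp and Ltf are near each other in the genome, a position that played no part in choosing them. In GRCm38, Camp (ENSMUSG00000038357) lies on chromosome 9 from 109847379 to 109849617 on the minus strand, Ngp (ENSMUSG00000032484) from 110419747 to 110423012 on the plus strand, and Ltf (ENSMUSG00000032496) from 111019271 to 111042767 on the plus strand. The gaps are 570129 bp between Camp and Ngp and 596258 bp between Ngp and Ltf. The span of 1195389 bp holds 54 annotated genes, 26 of which were tested. The 23 tested genes other than these 3 had a median log2 fold change of 0.026, 7 lower and 16 higher, from -0.44 for Cspg5 to 0.84 for Prss50. Both extremes had low counts, and they are named for their values. For all genes tested the median was 0.0014.

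**Figure D3:**
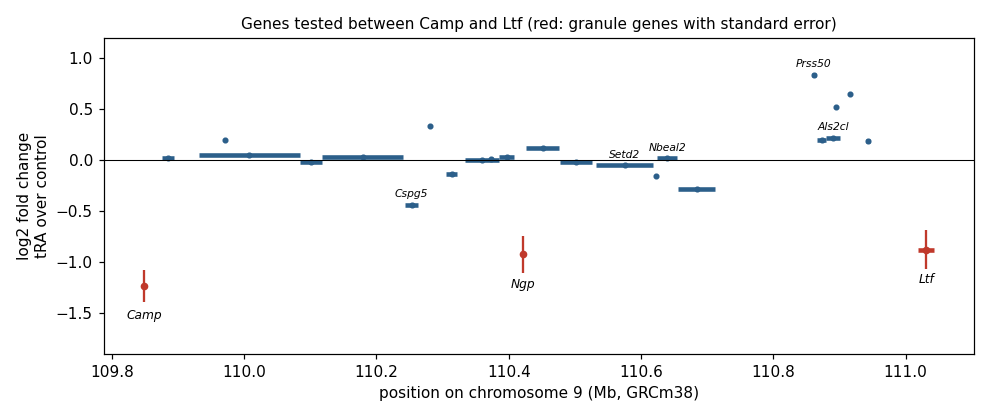
Log2 fold change of tRA over control (vertical axis) against position on chromosome 9 in Mb (GRCm38) for the 26 genes tested between Camp and Ltf, with bars along the axis for the extent of each gene. Camp, Ngp and Ltf, in red with their standard errors, are at -1.23, -0.92 and -0.88, and the other 23 genes, in blue, are between -0.44 and 0.84.

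Mmp8 (ENSMUSG00000005800) lies elsewhere on chromosome 9, from 7558456 to 7568485. Lcn2 (ENSMUSG00000026822) lies on chromosome 2 from 32384633 to 32388252 and Mmp9 (ENSMUSG00000017737) on the same chromosome from 164940780 to 164955850. Chil3 (ENSMUSG00000040809) lies on chromosome 3 from 106147554 to 106167564, and Cd177 (ENSMUSG00000052212) on chromosome 7 from 24743983 to 24760311. None of the 8 genes overlaps another annotated gene on either strand.

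Promoter sequences from RefSeq (GRCm38.p6) were matched for 7 of the 8 genes, Mmp9 being the exception. The 250 bases before the start of transcription were searched for TTGCNNAA, which holds the core of many C/EBP sites, GAGGAA, the core bound by PU.1, and AGGTCA, a nuclear receptor core motif, each on both strands. TTGCNNAA was found in Ngp, Ltf, Lcn2 and Mmp8, 4 of the 7, and in 9.56% of all 32851 promoters. GAGGAA was found in Ltf, Lcn2, Cd177 and Mmp8, 4 of the 7, and in 23.3% of all promoters. All 250 bases of Lcn2 lie past the start of the gene in GENCODE M21, so neither of its matches is in upstream sequence by that annotation. AGGTCA was found in Ltf alone of the 7 and in 14.0% of all promoters. After the sequences had been seen, ATAAA was searched on the sense strand from base -40 to base -16, and it was found in Camp, Ltf and Cd177, 3 of the 7, and in 4.25% of all promoters. In Cd177 it is part of TATAAA, which 7.59% of all promoters hold anywhere in the 250 bases on the sense strand. A match is a description of the letters and does not show that a factor binds.

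The upstream sequences of Ngp, Ltf, Cd177 and Mmp8 are shown, each with at least 1 match. All tRA mice were below all controls for Ngp and Ltf, and the groups overlapped for Cd177 and Mmp8. The sequences of Camp, whose groups did not overlap, and Chil3, whose groups did, are not shown. Neither held a match in sequence upstream of the gene as GENCODE annotates it. The sequences shown run 5′ to 3′ on the strand of the gene, with the matches to these 5 motifs, on either strand where both were searched, in capitals. They are intergenic in GENCODE M21, whose first exons of Ngp and Ltf begin before the RefSeq start, so their last 61 and 21 bases are left out. The bases are chr9:110419558-110419746 (plus strand) for Ngp, chr9:111019042-111019270 (plus strand) for Ltf, chr7:24760312-24760561 (minus strand) for Cd177 and chr9:7558179-7558428 (plus strand) for Mmp8.
Ngp: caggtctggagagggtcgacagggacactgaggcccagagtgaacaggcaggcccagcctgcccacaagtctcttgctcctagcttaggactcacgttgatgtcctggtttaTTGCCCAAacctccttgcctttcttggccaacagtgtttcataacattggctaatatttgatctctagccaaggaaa
Ltf: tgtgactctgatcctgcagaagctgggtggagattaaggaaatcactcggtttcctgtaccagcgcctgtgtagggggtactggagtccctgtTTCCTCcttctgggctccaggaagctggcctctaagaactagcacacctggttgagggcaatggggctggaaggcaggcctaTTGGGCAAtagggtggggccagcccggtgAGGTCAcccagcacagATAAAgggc
Cd177: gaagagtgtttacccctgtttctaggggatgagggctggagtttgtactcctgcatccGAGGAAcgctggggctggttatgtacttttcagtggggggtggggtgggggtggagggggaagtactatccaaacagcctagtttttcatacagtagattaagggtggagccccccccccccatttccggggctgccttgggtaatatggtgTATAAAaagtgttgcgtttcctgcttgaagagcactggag
Mmp8: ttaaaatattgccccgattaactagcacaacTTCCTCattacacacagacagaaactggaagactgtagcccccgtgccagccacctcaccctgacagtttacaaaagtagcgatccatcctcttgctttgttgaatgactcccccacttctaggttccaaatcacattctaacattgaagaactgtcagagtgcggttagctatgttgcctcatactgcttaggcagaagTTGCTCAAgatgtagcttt
Within these stretches, TTGCNNAA matches at bases -138 to -131 in Ngp, -75 to -68 in Ltf and -19 to -12 in Mmp8, counted back from the start of transcription. In Ltf, AGGTCA lies at -46 to -41 and ATAAA at -30 to -26. A further TTGCNNAA of Ngp, at -11 to -4, and the ATAAA of Camp, at -22 to -18, fall within the first exon as GENCODE annotates it, and both matches of Lcn2, at -216 to -209 and -20 to -15, lie within the gene.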

How the data were processed

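Libraries were made by the TruSeq v2 protocol. The authors deposited raw counts per gene, with no normalization, for each mouse. The paper's methods describe trimming with ea-utils and Btrim, alignment with Bowtie2 and Tophat2 and counting with HTSeq. The submitters' processing notes instead name STAR 2.5.2b, featureCounts 1.5.1, DESeq2 1.26.0 and GRCm38. Which made the counts, and whether strand was used, is not given in the sources used here. Their DESeq2 table, with mean normalized counts, fold changes, standard errors, statistics and p-values of their own comparison, was not used.

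Symbols, positions and exon lengths came from GENCODE M21, which lacks 193 of the 51826 identifiers. The tests used edgeR 4.0.16 in R 4.3.3 (filterByExpr with a minimum count of 10, TMM, quasi-likelihood test, FDR under 0.1, group as the only term) and DESeq2 1.42.0, and figures were drawn in Python 3.11.15 with matplotlib 3.10.9. Both tools were tested on simulated data, where the share of unaltered genes among the calls was above the set FDR, slightly for edgeR and more so for DESeq2. Libraries of the same group were compared in pairs, and no pair agreed within sampling noise (chi-square over genes divided by its degrees of freedom, 12.9 to 65.4).

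The 8 genes and the 18 other gene lists were chosen with earlier results of these data known. Genes named in the text are all 8 granule genes, the most abundant gene of a list and the 3 with the largest absolute log2 fold change at a mean of at least 1 CPM, list genes with an FDR under 0.1, the 10 genes most alike and paralogs of the same symbol stem. For the marker lists of other cell types, not all genes under this rule are given. A few further genes, such as Ctsg and Ms4a3, are named outside it. A gene that this rule would name is not reported here. Log2 CPM for the likeness used a prior count of 2.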

Additional observations from a re-analysis of the deposited data

Results flagged for a closer look

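In 54 groups of 4 mice, for the 8 granule genes and the summed level of each gene list, the gap between an extreme mouse and its nearest neighbor was compared with the range of the group. It was unusually large in 3, where chance gives about 1 in 20, or 2.7. In the tRA group, the gap was 0.90 of the range for Camp and 0.888 for Mmp8, and in both cases mouse 4 was high, at 42.7 CPM for Camp and 19.2 CPM for Mmp8. In the control group, it was 0.880 of the range for the summed level of the megakaryocyte and platelet markers.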

How the results depend on the processing

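The number of genes called at an FDR under 0.1 was 0 with edgeR, RLE normalization and at least 10 counts in every library, 27 with DESeq2 and 6 with no filter on low counts. Of the 8 granule genes, DESeq2 called 4 and edgeR with no filter 3. Leaving out each mouse in turn, edgeR called 0 to 3 genes in all and 0 to 3 of the 8, and DESeq2 15 to 551 genes in all and 3 to 5 of the 8, the latter a setting added after seeing the data. The cause was not tested. The other secondary and tertiary granule genes had 0 calls in the 13 alternatives set beforehand, and 0 to 3 in the added setting. There Olfm4 was called without control replicate 1, beside 17 of all 14025 genes tested. Without tRA replicate 1, Olfm4, Fcnb and Cyba were called, beside 551 of 14042 genes. Without tRA replicate 4, Olfm4 and Fcnb were called, beside 20 of 16858 genes. The median log2 fold change of the 8 genes was negative in all 13, as was that of the other list, from -0.037 to -0.22, and -0.031 in the added setting without control replicate 2. Of the single genes, Mmp9 reversed, to 0.072 without control replicate 2 (-0.30 without tRA replicate 4), and the other 7 were negative in all 13. The granule genes without overlap between groups were 3 of 8 under each of 3 scalings. With TMM, 1.63% of all genes tested had all tRA mice below all controls, and no such share is given for the other scalings. As the genes were chosen by this comparison, nothing is read from the count. The number of neutrophil list genes among the 10 most alike was 1, against 0 with Spearman's rho, 3 with deviations from the mean of all 8 libraries and 0 to 2 with each mouse left out. With the replicate number as a block, edgeR called 0 genes, with 1200 at an unadjusted p under 0.05 against 1070 without the block, and 6 of the 8 granule genes against 4. The numbers were not taken as pairs, as only 2 of the 4 correlations between the deviations of mice of the same number were over 0.1 (0.157, -0.023, -0.014 and 0.259 for numbers 1 to 4). The median coefficient of variation of the 8 genes with tRA, also computed without single mice after seeing the data, was 30.0%, against 13.4% without tRA replicate 4. Several precursor genes were near 1 CPM.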
